A study of Mus musculus with 6 samples.

Results

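The plasminogen activation system is the set of proteases, cell surface receptor and inhibitors that governs where plasminogen is turned into plasmin. The 7 members described here were found by gene symbol among the 24346 symbols of the expression table, and all 7 were present. They are Plau (urokinase) and Plat (tissue-type activator), the urokinase receptor gene Plaur, and the serpin genes Serpine2, Serpinb2, Serpinf2 and Serpinf1. RNA was sequenced from primary articular chondrocytes, the cells that make joint cartilage, of ICR mice at postnatal day 4, kept without semaphorin 4D (control, 3 libraries) or given it (Sema4D, 3 libraries). Semaphorin 4D is a ligand of plexin-B receptors. No allele, transgene or other agent is named in the labels for either group. Of the dose, the duration, the control medium and the number of animals behind each library, the sources used here say nothing. Whether the 3 libraries of a group are separate cultures is not said, so p-values measure the spread between libraries, which may be technical.

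As background, urokinase is secreted and held at the cell surface by its receptor, while the tissue-type enzyme works best on fibrin. Both cut plasminogen, a protein made mainly in the liver, into plasmin, which digests fibrin and several matrix proteins and can activate some matrix metalloproteinases. Serpins stop these enzymes by trapping them, and spent complexes are taken up by the endocytic receptor LRP1. In joint tissue the system is known as one route by which cartilage matrix can be broken down.

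Expression was read as FPKM, fragments scaled to transcript length and library size, so levels can be set side by side between genes. The smallest steps between low FPKM values put depth at 1.25e+07 to 1.66e+07 fragments per library, and 1 fragment on 1 kilobase was worth 0.0604 to 0.0803 FPKM. All 9 chondrocyte markers passed the filter for testing (a mean across all 6 libraries that reached 1 FPKM), with Col2a1, the main cartilage collagen gene, at 8396 to 10952 FPKM. All 9 were also lower with Sema4D, summing to 14240 to 15369 FPKM in control and 11447 to 12376 FPKM in Sema4D libraries, and the part of this shift in the members' values was not tested. Fibroblast and synovial markers were present too, their 6 genes summing to 5012 to 5387 FPKM in control and 5003 to 5239 FPKM in Sema4D libraries, mostly from Col1a1 and Col3a1. Of the 6 genes, 1 was called higher and 2 lower. Over all tested genes the shares were 24.5% and 22.2%, so this count is not read as a result about the 6 genes. Pdgfra was at 22.4 to 23.6 FPKM in control and 41.5 to 42.8 FPKM with Sema4D. Dpt went the other way, at 22.5 to 24.4 FPKM in control and 10.2 to 12.4 FPKM with Sema4D. All 5 endothelial markers were under 1 FPKM in every library (summed 0.0652 to 0.226 FPKM in control and 0.131 to 0.307 FPKM with Sema4D). The 7 macrophage and osteoclast markers summed to 62.5 to 65.3 FPKM in control and 76.5 to 80.2 FPKM with Sema4D, largely from Ctsk, while Ptprc, the pan-leukocyte gene, stayed at 0.0595 to 0.127 FPKM. In such bulk libraries a change in the share of a cell type and a change in RNA per cell cannot be told apart.

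Promoter sequence is shown for the members whose values were higher in every Sema4D library than in every control library and whose start site was matched in the RefSeq table of GRCm38.p6, the assembly of mm10. The 250 bases before each start were searched on both strands for the AP-1 motif (TGANTCA), the cyclic AMP response element (TGACGTCA, which overlaps the AP-1 letters only in part), the TATA box (TATAAA), the GC box (GGGCGG) and the NF-kappaB motif. Capitals mark AP-1, TATA box and GC box matches. Each line runs 5′ to 3′ on the gene's own strand, and the Serpine2 line stops before the first exon that GENCODE M21 annotates. The Plaur and Serpinb2 windows precede transcript starts that lie inside the annotated span of the gene.
Plaur, chr7:24462233-24462482, plus strand: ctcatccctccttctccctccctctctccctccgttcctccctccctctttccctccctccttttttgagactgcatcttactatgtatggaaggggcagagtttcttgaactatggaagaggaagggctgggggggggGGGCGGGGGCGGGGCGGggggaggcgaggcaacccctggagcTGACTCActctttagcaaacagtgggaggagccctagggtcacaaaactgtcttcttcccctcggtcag
Serpinb2, chr1:107511173-107511422, plus strand: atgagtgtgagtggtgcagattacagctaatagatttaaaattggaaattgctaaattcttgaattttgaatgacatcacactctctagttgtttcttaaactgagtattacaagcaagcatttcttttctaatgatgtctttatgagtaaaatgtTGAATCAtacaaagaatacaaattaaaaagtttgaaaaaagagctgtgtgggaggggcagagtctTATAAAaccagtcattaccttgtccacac
Serpine2, chr1:79858697-79858915, minus strand: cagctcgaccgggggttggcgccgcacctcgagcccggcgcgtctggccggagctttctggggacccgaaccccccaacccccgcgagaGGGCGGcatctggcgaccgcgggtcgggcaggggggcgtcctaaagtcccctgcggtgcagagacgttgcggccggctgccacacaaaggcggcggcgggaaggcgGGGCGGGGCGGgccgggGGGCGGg

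The sequences differ in make-up. The Plaur window held 1 AP-1 match, whose first base lies at position -69 from the start, and 3 GC boxes. The printed Serpinb2 window held 1 AP-1 match at -94 and a TATA box at -29, and was poor in G and C (32.4%). RefSeq lists another Serpinb2 start further downstream, from which the same matches lie at -181 and -116, with 38.4% G and C in its window. The Serpine2 window of 250 bases had no AP-1 match or TATA box and 6 GC boxes, 4 of them in the printed stretch, and was 78.8% G and C against a median of 52.4% over all windows. AP-1 letters occur in 6.75% of the 32851 RefSeq promoter windows of that length, the TATA box in 12.4%, GC boxes in 32.7%, the cyclic AMP response element in 1.55% and the NF-kappaB motif in 7.25%. The cyclic AMP response element and NF-kappaB motifs matched none of the 5 members that have a window, and Serpinf1 and Serpinf2 matched none of the motifs searched. A match is a description of the letters.

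The comparison of Sema4D with control asked which transcripts differ in stimulated chondrocytes. Plaur and Serpine2 rose, Plat fell, and neither Plau nor Serpinf1 passed the threshold. Of 7 members, 5 passed the filter, and 2, Serpinb2 and Serpinf2, were under it. Of the 5 tested, 2 were higher and 1 lower by limma at an adjusted p under 0.05, and their median log2 fold change was -0.03. Across all 11603 genes tested, 46.7% were called, 24.5% higher and 22.2% lower, with a median of 0.01, against 3 of the 5 members, which is too near to be read as a result about the members. Of all called genes 52.4% were higher and 47.6% lower. The higher share was 38.8% after quantile normalization and 38.3% after upper quartile scaling. Fold changes are on the log2(FPKM + 1) scale, which understates the change of low genes.

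**Figure D1:**
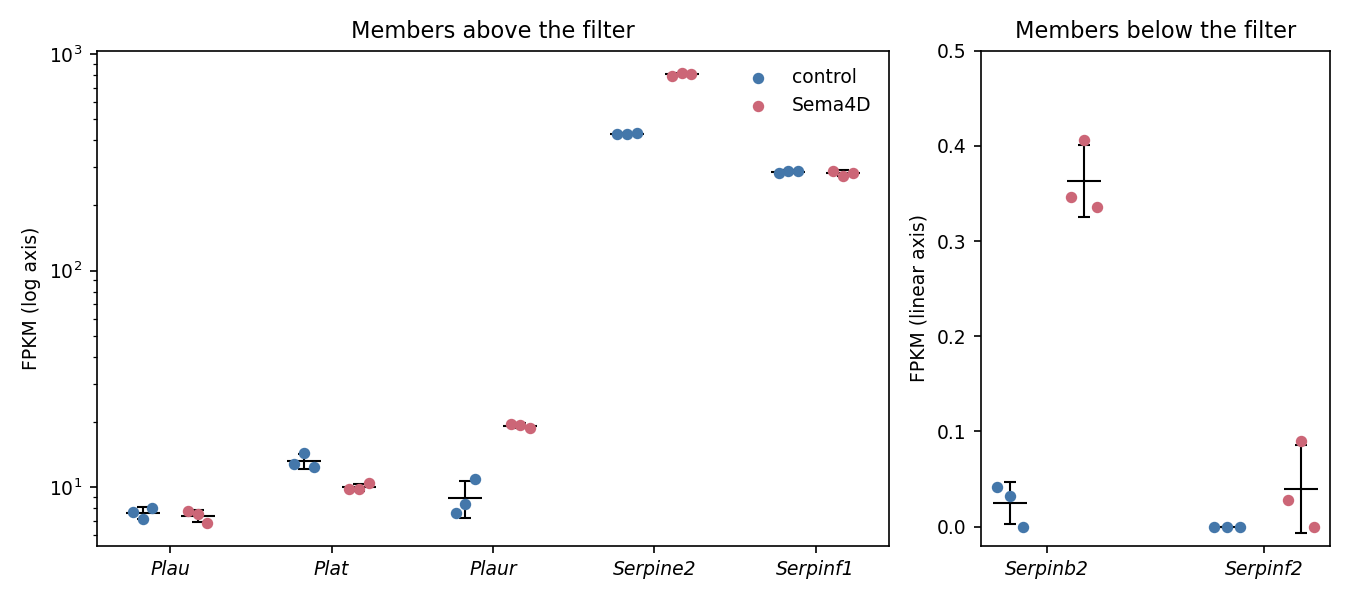
FPKM of the 7 members in each library (points), with the mean and SD of 3 libraries per group as bars; the left panel has a log axis and the right panel a linear one. Plaur and Serpine2, and Serpinb2 at its low level, stand apart between groups in the upward direction and Plat in the downward one. Plau, Serpinf1 and Serpinf2 overlap.

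Of the activators, Plau (chromosome 14, 20836662 to 20843388, plus strand) encodes the enzyme that the urokinase receptor binds. Its level was 7.63, 7.11 and 8.04 FPKM in control replicates 1, 2 and 3 and 7.76, 7.48 and 6.81 FPKM in Sema4D replicates 1, 2 and 3. The groups overlapped: the highest of the 6 values was in a control library and the lowest in a Sema4D library, with the rest interleaved. The log2 fold change was -0.04 (SE 0.062, 95% interval -0.18 to 0.10, limma adjusted p = 0.616). A p that misses the threshold does not show that the level was the same.

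Plat (chromosome 8, 22757722 to 22782848, plus strand), the fibrin-directed activator, stood at 12.7, 14.4 and 12.4 FPKM in control and 9.78, 9.76 and 10.4 FPKM in Sema4D libraries. Every Sema4D library lay below every control library. It fell from 13.2 ± 1.08 to 9.99 ± 0.38 FPKM (mean ± SD, n = 3 per group; log2 fold change -0.36, SE 0.060, limma adjusted p = 0.00137), and 8.89% of tested genes had a lower log2 fold change. The endothelial markers given above, of a cell type known to make this activator, were near 0 in both groups. The part of such cells in the fall of Plat was not tested.

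Plaur (chromosome 7, 24460937 to 24475970, plus strand) encodes the urokinase receptor, a protein anchored to the outer face of the cell membrane by a lipid. It stood at 7.56, 8.36 and 10.9 FPKM in control and 19.7, 19.3 and 18.7 FPKM in Sema4D libraries. Control replicate 3 was the highest control and still well under the lowest Sema4D library. The level rose from 8.93 ± 1.72 to 19.2 ± 0.481 FPKM, 2.15-fold by the ratio of means (log2 fold change 1.04, SE 0.106, limma adjusted p = 7.61e-05). Of tested genes, 96.6% had a lower log2 fold change. Macrophages and neutrophils also carry this receptor. Of the 7 macrophage and osteoclast markers 4 were tested: Ctsk rose, Tyrobp fell, and Cd68 and Acp5 were not called. Tyrobp, an adaptor gene of myeloid cells, was at 1.26, 2.44 and 1.35 FPKM in control and 0.315, 0.846 and 0.746 FPKM with Sema4D, lower in every Sema4D library. It was under 1 FPKM in every Sema4D library and so entered the test only through its control level. Under the filter, the macrophage gene Adgre1 was at 0.0784 to 0.268 FPKM in control and 0.563 to 0.75 FPKM with Sema4D, higher in every Sema4D library, while Csf1r and Ptprc overlapped between groups. The 3 neutrophil markers in the file summed to 0 in control and 0 to 0.624 FPKM with Sema4D, with S100a9 and Elane listed at 0 throughout. The part of such cells in the rise of Plaur was not tested.

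**Figure D2:**
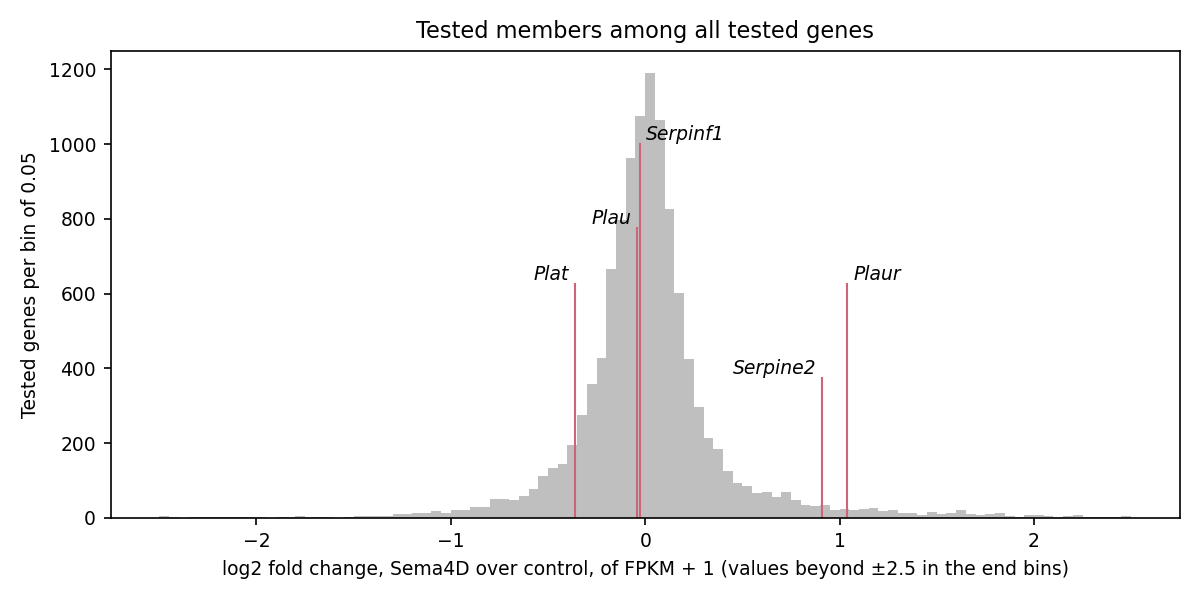
Histogram of log2 fold changes over the 11603 tested genes (grey, bins of 0.05, values beyond 2.5 in either direction in the end bins) with the 5 tested members as red lines, whose heights carry no value. Plaur and Serpine2 lie in the right tail, Plat in the left shoulder, and Plau and Serpinf1 beside the centre.

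Among the inhibitors, Serpine2 (chromosome 1, 79794317 to 79858665, minus strand) encodes protease nexin-1, a secreted serpin that blocks thrombin, urokinase and the tissue-type activator. It was the most abundant member in both groups, at 428, 426 and 430.2 FPKM in control and 796, 815 and 805 FPKM in Sema4D libraries. The libraries of each group lay close together and the groups were far apart. Serpine2 rose from 428 ± 2.05 to 805 ± 9.77 FPKM, 1.88-fold (log2 fold change 0.91, SE 0.023, limma adjusted p = 1.69e-08), and 96.1% of tested genes had a lower log2 fold change. After quantile normalization the log2 fold change was 0.73.

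Serpinb2 (chromosome 1, 107500892 to 107525600, plus strand) encodes plasminogen activator inhibitor 2, a serpin that is mostly kept inside cells. It was listed at 0.042, 0.0321 and 0 FPKM in control and 0.347, 0.406 and 0.336 FPKM in Sema4D libraries, so every Sema4D library was above every control library at a level far under the filter. On its longest GENCODE transcript of 1996 bases these values come to about 1.04, 1.03 and 0 fragments in control and 11.5, 12.5 and 9.45 fragments with Sema4D. Tested with no filter on low values, its log2 fold change was 0.41 (SE 0.034, limma adjusted p = 0.000139). In GENCODE the gene overlaps Serpinb10 on the same strand, whose values were 0 to 0.0192 FPKM.

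Serpinf2 (chromosome 11, 75431736 to 75439501, minus strand) encodes alpha-2-antiplasmin, the main plasma inhibitor of plasmin, made chiefly in the liver. It was listed at 0 in all control libraries and at 0.028, 0.0902 and 0 FPKM in Sema4D libraries, about 1.02, 3.05 and 0 fragments. At this depth no difference was detectable: with no filter the log2 fold change was 0.05 (limma adjusted p = 0.298).

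Serpinf1 (chromosome 11, 75410029 to 75422623, minus strand) encodes pigment epithelium-derived factor, a serpin fold protein that inhibits no protease and is known to restrain blood vessel growth. It stood at 282, 290 and 289 FPKM in control and 289, 273 and 283 FPKM in Sema4D libraries. The groups overlapped, and the log2 fold change was -0.03 (SE 0.030, 95% interval -0.09 to 0.04, limma adjusted p = 0.499). Its call turned on the scaling: it was called lower after quantile normalization (-0.14, adjusted p = 0.0039) and after upper quartile scaling (-0.090, adjusted p = 0.0399). Across the alternatives its limma adjusted p ran from 0.0039 to 0.941. Serpinf1 and Serpinf2 lie side by side, 9112 bases apart, and differed widely in level.

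The members were ranked by level per length. In control libraries Serpine2 came first, then Serpinf1, Plat, Plaur, Plau, Serpinb2 and Serpinf2. The ranges of Plaur and Plau overlapped there, as did those of Serpinb2 and Serpinf2. With Sema4D, Plaur stood above Plat, and no neighbours in the order overlapped. The abundant serpins Serpine2 and Serpinf1 were above 99.3% and 99.1% of all symbols in control, whereas Plau was above 70.9%.

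Ratios within a library are unchanged by any single scaling factor for that library, though not by quantile normalization. The ratio of Plau to Plat was 0.6, 0.494 and 0.65 in control and 0.793, 0.767 and 0.653 in Sema4D libraries. The groups did not overlap, but the lowest Sema4D value was close to the highest control value. On the log2 scale the ratio differed by 0.35 (exact two-sided permutation p = 0.1, the smallest that 3 libraries against 3 allow). The ratio of Plau to its inhibitor Serpine2 was 0.0178, 0.0167 and 0.0187 in control and 0.00975, 0.00918 and 0.00846 with Sema4D, with the groups well apart. That ratio was lower with Sema4D by a log2 difference of -0.96 (exact two-sided permutation p = 0.1). With 2 such ratios tested, the adjusted values are 0.1 as well.

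The other pair of ratios was chosen after the values were seen and was not tested. Receptor to ligand, the ratio of Plaur to Plau was 0.991, 1.18 and 1.35 in control and 2.53, 2.58 and 2.75 with Sema4D. The ratio of Serpine2 to Plat was 33.6, 29.6 and 34.8 in control and 81.4, 83.6 and 77.2 with Sema4D. Both were higher in every Sema4D library than in every control library.

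**Figure D3:**
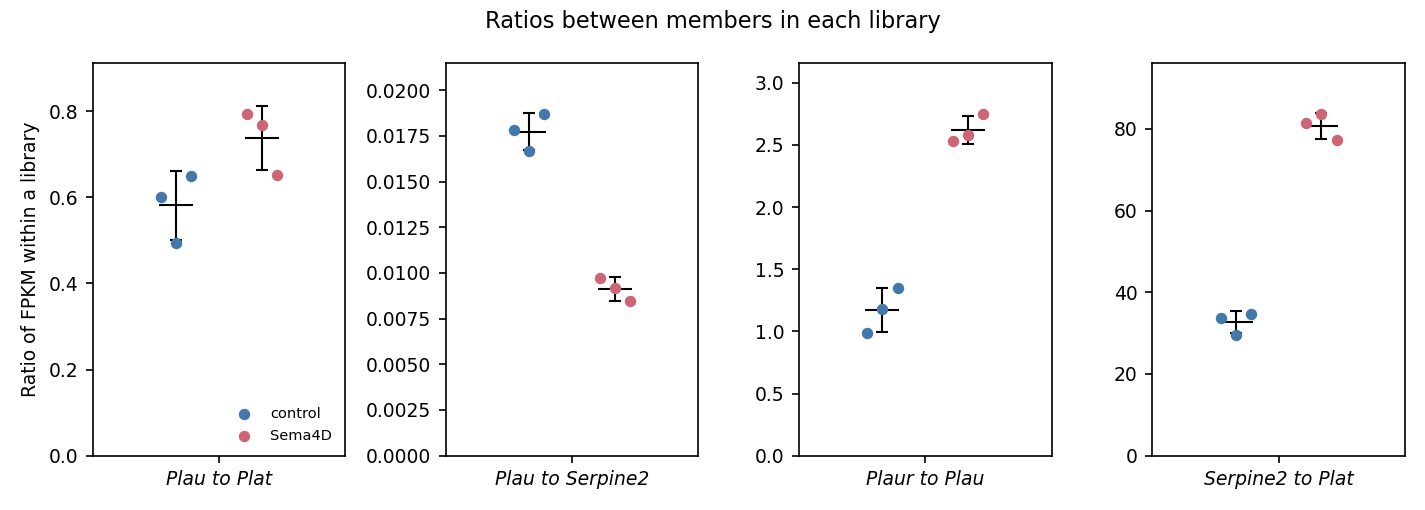
Ratio of FPKM between members in each library (points), with mean and SD of 3 libraries per group as bars, on linear axes from 0. The Plau to Plat ratio nearly meets between groups at 0.65 and 0.653, while the other ratios are far apart.

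Partner genes were read from lists by role, 128 genes in all. Of these, 40 passed the filter, 17 were higher, 13 lower and 10 not called, with a median log2 fold change of 0.03. These counts are set against 46.7% called over all tested genes, 24.5% higher and 22.2% lower, and are not tested as a list. Plg, the gene of plasminogen itself, was listed at 0 in all 6 libraries, and Vtn, the gene of vitronectin, a matrix protein to which the urokinase receptor binds, was at 0.0388 FPKM in Sema4D replicate 2 and listed at 0 in the others.

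Of 4 plasminogen docking genes, all were tested, 1 rose, 1 fell and 2 were not called. Anxa2 encodes the annexin that binds plasminogen and the tissue-type activator, and fell from 912 ± 9.32 to 842 ± 10.8 FPKM (-0.12 on the log2 scale, limma adjusted p = 0.00405). Its partner S100a10 was at 258 ± 10.6 and 241 ± 7.8 FPKM (-0.10, adjusted p = 0.0633), and was called lower after quantile normalization, upper quartile scaling or without control replicate 2. Over the alternatives its limma adjusted p ran from 0.00298 to 0.181. The receptor gene Plgrkt was at 38.8 ± 4.24 and 37.4 ± 0.914 FPKM (-0.05, adjusted p = 0.614), and without control replicate 2, its lowest control at 34.0 FPKM, it was called lower (limma adjusted p = 0.0265, and up to 0.92 in other alternatives). Eno1, a glycolytic enzyme that also binds plasminogen at the cell surface and has near-identical copies in the genome, rose from 422 ± 31.8 to 555 ± 34.2 FPKM (0.39).

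Of 15 genes for urokinase receptor partners and clearance receptors, 11 were tested, of which 3 rose, 5 fell and 3 were not called. Lrp1, the receptor that clears serpin complexes, rose from 144 ± 6.02 to 193 ± 6.35 FPKM (0.42 on the log2 scale, limma adjusted p = 4.25e-05). The integrin gene Itgav, whose protein binds vitronectin, rose from 29.6 ± 1.18 to 39.4 ± 1.65 FPKM, and the lipoprotein receptor gene Vldlr from 23.1 ± 0.907 to 28.6 ± 0.956 FPKM. Sorl1, a sorting receptor, fell from 2.73 ± 0.269 to 1.18 ± 0.0609 FPKM (-0.77). Lrpap1 (-0.19), Itga3 (-0.22), Igf2r (-0.13) and Mrc2 (-0.13) fell by less, named here after their values were seen. The call of Mrc2 was lost without control replicate 2.

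Of 11 further inhibitors, 3 were tested, 2 rose and A2m was not called. Serping1, the gene of the complement inhibitor that also acts on plasmin, rose from 1.98 ± 0.493 to 4.27 ± 0.159 FPKM (log2 fold change 0.83). Serpinb6a passed narrowly (0.09, limma adjusted p = 0.0322, from 0.0217 to 0.487 over the alternatives). Serpinb6a was not called without control replicate 2 or 3, without any one Sema4D library, with a replicate block or under either scaling, and after quantile normalization its sign was negative (-0.03).

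Of 23 coagulation, fibrin and thrombin receptor genes, 6 were tested, 3 rose and 2 fell. Thbd, the gene of thrombomodulin, which turns thrombin toward anticoagulant protein C, fell from 49.5 ± 2.46 to 21.4 ± 1.16 FPKM (-1.17 on the log2 scale, limma adjusted p = 3.95e-07). Procr, the protein C receptor gene, rose from 6.12 ± 0.959 to 11.8 ± 0.35 FPKM (0.85). F3, which encodes tissue factor, the starter of coagulation, rose from 5.93 ± 0.581 to 10.1 ± 1.14 FPKM (0.68), and the thrombin receptor gene F2r from 10.4 ± 0.666 to 13.2 ± 0.491 FPKM (0.32). F13a1, the fibrin cross-linking subunit gene, fell (-0.24, limma adjusted p = 0.0202), a call lost without control replicate 2, control replicate 3 or Sema4D replicate 1, with adjusted p from 0.00872 to 0.0687 over the alternatives.

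Hepatocyte growth factor is a plasminogen relative that serine proteases activate. Of 9 genes of its axis, 3 were tested. Hgf fell from 3.96 ± 0.52 to 1.74 ± 0.417 FPKM (log2 fold change -0.86), its receptor gene Met rose from 3.83 ± 0.197 to 4.64 ± 0.145 FPKM (0.22), and Spint2, which encodes an inhibitor of its activating proteases, rose from 3.45 ± 0.522 to 8.02 ± 0.393 FPKM (1.03). Of 12 genes with the Ly6/uPAR domain that Plaur carries, 4 were tested and 1 was called, Ly6e, which rose from 39.3 ± 1.96 to 74.9 ± 4.96 FPKM (0.91).

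**Figure D4:**
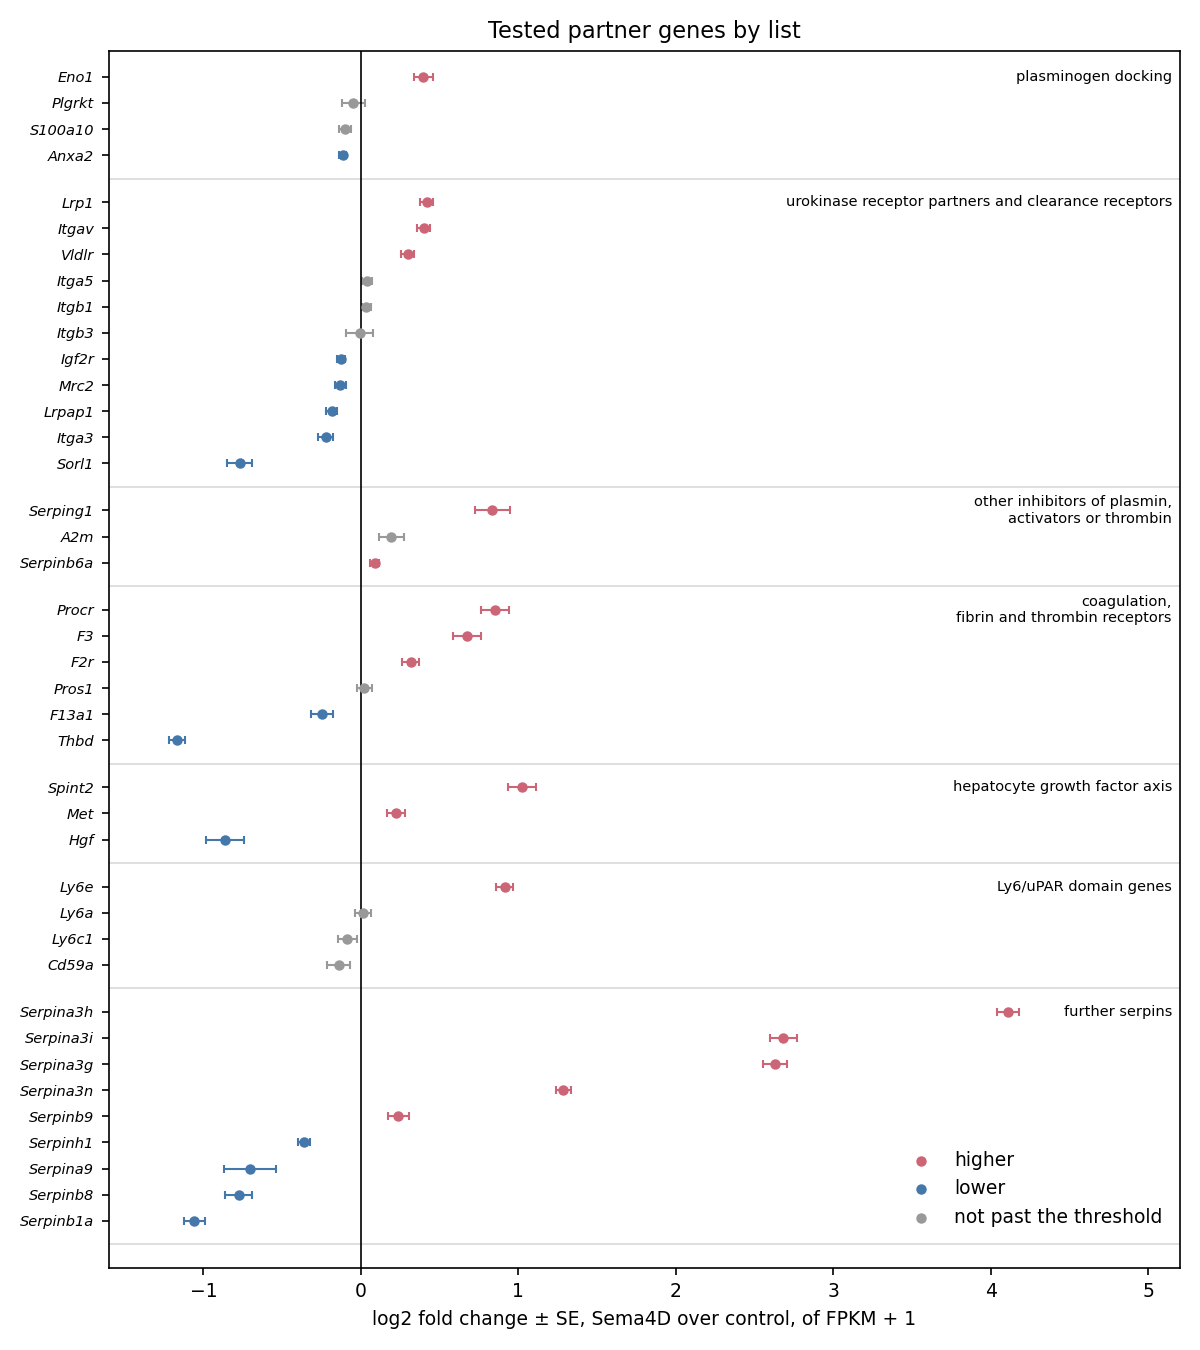
log2 fold change with its SE for the 40 tested partner genes, grouped by list, in red where higher, blue where lower and grey where not past the threshold; a gene in 2 lists is drawn in the first. Thbd at -1.17 is the lowest point and Serpina3h at 4.11 the highest.

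A further 58 serpin genes were read, some of them also in the lists above. Of these, 11 were tested, 7 rose and 4 fell, while 26 were listed at 0 in all libraries. Over all tested genes 24.5% were called higher and 22.2% lower, and these serpin counts are not tested as a list. The 7 include the related Serpina3h, Serpina3g, Serpina3i and Serpina3n, and also Serping1 and Serpinb6a, which were counted above. The last of the 7, Serpinb9, named here after its values were seen, lost its call without control replicate 3 or Sema4D replicate 2. Over the alternatives 3 to 10 of the further serpins were called higher and 3 to 5 lower. The 3 tested serpins with the smallest p were the clustered genes Serpina3h (from 2.39 ± 0.329 to 57.3 ± 1.87 FPKM), Serpina3g (from 0.0703 ± 0.01 to 5.63 ± 0.452 FPKM) and Serpina3i (from 0.347 ± 0.146 to 7.61 ± 0.212 FPKM), near-identical copies whose separate values are uncertain. Serpina3g and Serpina3i were under 1 FPKM in every control library and so entered the test only through their rise with Sema4D. Other serpins went the opposite way, named here after their values were seen: Serpinb1a, the gene of an inhibitor of neutrophil proteases, fell from 12.8 ± 0.813 to 5.62 ± 0.489 FPKM (log2 fold change -1.06), Serpinb8 from 7.93 ± 0.53 to 4.24 ± 0.587 FPKM (-0.78) and the collagen chaperone gene Serpinh1 from 1360 ± 54.5 to 1059 ± 34.6 FPKM (-0.36). Serpina9 also fell, but it was under 1 FPKM in every Sema4D library and so entered the test only through its control level.

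The nearest protein-coding genes on each side of the members were read from the same test. Beside Serpine2, the mitochondrial ribosome gene Mrpl44, 12871 bases away, was not called (log2 fold change -0.01, limma adjusted p = 0.917), and Fam124b was under the filter. Both neighbours of Plaur, Irgc1 and Cadm4, were under the filter, as were Serpinb7 and Serpinb10 beside Serpinb2. Next to Plat, Ap3m2 fell (-0.28, adjusted p = 0.0114) and Ikbkb, a kinase gene of the NF-kappaB pathway, rose (0.29, adjusted p = 0.00167). Beside Plau, which was not called, both Camk2g (-0.15, adjusted p = 0.0145) and the focal adhesion gene Vcl (-0.26, adjusted p = 0.000107) fell. Beside Serpinf2, Wdr81 rose (0.28, adjusted p = 0.000841), and beside Serpinf1, Smyd4 was not called (-0.12, adjusted p = 0.297).

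Likeness was measured as the Euclidean distance between log2(FPKM + 1) profiles over the 6 libraries, each centred on its own mean. The genes nearest to Serpine2 were Tgfbr3, a TGF-beta co-receptor gene (distance 0.0267), the autophagy receptor gene Sqstm1 (0.0352) and Prss23 (0.0504). Nearest to Plaur were Pcdh1 (0.143), Slc16a10 (0.173) and Irf5 (0.217). The means of these 3 were 0.728, 0.824 and 0.405 FPKM in control and 2.56, 2.99 and 2.02 FPKM with Sema4D. At such low levels the log2(FPKM + 1) scale understates the change, so their fold changes in FPKM were larger than that of Plaur. With control means under 1 FPKM, these genes entered the search only through their Sema4D level. Plat was nearest to Apc2 (0.0756), Rgma (0.0781) and Adamtsl4 (0.0805), Plau to Zdhhc16 (0.0478), and Serpinf1 to Chd8 (0.0251). Apc2, with means of 1.30 FPKM in control and 0.787 FPKM with Sema4D, entered only through its control level. The 6 libraries fall in 2 groups, so genes with a group difference of like size lie close together.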

How the data were processed

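RNA-seq of 6 libraries, 3 control and 3 Sema4D, was used as deposited: FPKM per gene symbol, 1 column per library. The submitters' processing notes name Cufflinks 2.2.1, Bowtie2 2.2.3, TopHat2 2.0.13, SAMtools 0.1.19 and the build mm10, with no roles. The annotation, strand setting and filters behind the authors' FPKM are not given in the sources used here. With no strand setting known, overlapping genes cannot be told apart.

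Values were transformed to log2(FPKM + 1). The 11603 of 24346 genes whose mean reached 1 FPKM were tested across all genes with limma 3.58.1 in R 4.3.3 (lmFit, eBayes with a trend, two-sided, Benjamini-Hochberg, adjusted p under 0.05). The fit was also run on simulated data in which few genes were changed, whereas 46.7% of tested genes were called here. That run therefore does not check the calls at such a share. Depth came from 1187 genes with 1 transcript over 2000 bases, where only 79.5% to 84.8% of low values came within 0.15 of whole fragments, so counts were not recovered and no count test was run. Ratios were compared by an exact permutation test (Python 3.11.15, numpy 2.4.6, pandas 2.3.3, matplotlib 3.10.9).

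Members and lists were chosen with earlier results of these data known. All members, the 3 partners per list with the smallest p, partners in a direction that 3 or fewer took, 6 partners fixed by name, the 3 nearest profiles per member and 1 neighbour on each side could be named. Positions are from RefSeq on GRCm38.p6. Alternatives were another pseudocount, other filters, 2 scalings, a replicate block and each library left out. 1 item of the lists is not reported here.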

Additional observations from a re-analysis of the deposited data

How the results depend on the processing

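Plaur and Serpine2 stayed higher and Plat lower, past the threshold, in all 12 alternatives tried: a pseudocount of 0.1, no filter, a mean of at least 5 FPKM, quantile normalization, upper quartile scaling, a replicate block and each library left out. Their log2 fold changes ran from 0.94 to 1.18, from 0.73 to 0.92 and from -0.43 to -0.30. Plau was not called in any of these (-0.10 to 0.01). Serpinf1 was called lower after quantile normalization (-0.14) and upper quartile scaling (-0.090), so the members called lower were then 2. These scalings lower the median log2 fold change of all tested genes to -0.05. Serpinb2, under the filter, was called with no filter (0.41), where 3 members were higher. Leaving out 1 library at a time, the Plau to Plat log2 difference ran from 0.24 to 0.43, that of Plau to Serpine2 from -1.01 to -0.91, and partner calls from 15 to 18 higher and 11 to 14 lower. Deviations from the group means correlated across genes in same-numbered libraries for replicate 1 (r = 0.14) but not for 2 and 3 (-0.081 and -0.054), so the numbers were not taken as pairs. Control 2 with Sema4D 3 (0.136) and control 3 with Sema4D 2 (0.103) were the other positive values, and every other pair was negative. Deviations from a group mean cancel within the group, so negative values were bound to occur beside positive ones. With the replicate block 2 members were higher and 1 lower, and 2638 of all tested genes were higher and 2356 lower. The replicate block, which joins same-numbered libraries, changed the call of no tested member, and no other pairing was fitted. Genes at a few fragments, Serpinb2 and Serpinf2, are limited by depth.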

Other observations

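Several low genes of the wider system were under the filter and were not tested. A few of them are given here as values, chosen after those were seen from genes whose groups did not overlap. Other such genes, among them Fpr2, F2rl3 and Mst1r, are left out. How often groups fail to overlap among all symbols was not counted, so these values are not read as a result about the system. Tfpi2, which encodes a Kunitz inhibitor of plasmin, was at 0.228, 0.309 and 0.23 FPKM in control and 0.943, 1.06 and 1.83 FPKM in Sema4D libraries. Serpinb5, the maspin gene of the chromosome 1 serpin cluster that holds Serpinb2, was at 0.502, 0.461 and 0.607 FPKM in control and 0.189, 0.228 and 0.223 FPKM with Sema4D, opposite in direction to Serpinb2. The coagulation factor VIII gene F8 was at 0.85, 0.844 and 0.766 FPKM in control and 0.456, 0.53 and 0.45 FPKM with Sema4D. Fpr1, a formyl peptide receptor gene, was listed at 0, 0.0515 and 0.0536 FPKM in control and 0.75, 0.107 and 0.473 FPKM with Sema4D.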
